A study of Mus musculus with 10 samples.

Results

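The data described are the transcript levels of 9 transcription factors that direct T helper and effector T cell lineages, Tbx21, Eomes, Rora, Bcl6, Prdm1, Irf4, Maf, Ahr and Zbtb7b, in Treg cells that lost or kept Foxp3 protein. They were chosen by name from the 55809 gene rows of each library, as master regulators of these lineages, and all 9 had enough counts to be tested. Bulk RNA-seq was made from Treg cells of spleen and lymph nodes of mice with the AID-Foxp3 allele, in which an auxin-inducible degron (AID) is joined to Foxp3 and a ZsGreen reporter and Cre are co-expressed. In R26-TIR1(F74G) mice (6 libraries) the ROSA26 allele encodes the plant E3 ligase TIR1(F74G) and mCherry behind a STOP cassette that Cre removes, and 5-ph-IAA, an auxin analog, makes TIR1(F74G) mark AID-Foxp3 for breakdown. Control R26-WT mice (4 libraries) carry the same Foxp3 allele without TIR1, and all mice were given 5-ph-IAA over 14 days. The comparison asks which of the lineage regulators change in level when Foxp3 protein is lost. The labels state neither the age nor the sex of the mice, though a folder name in the file headers reads male, and neither they nor the study's methods give a sort gate for these libraries by name. The methods' general gate for Treg cells was CD4+, TCRβ+ and ZsGreen+ in R26-WT, with mCherry+ added in R26-TIR1(F74G), so that where it was used the gate differed together with the genotype.

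Helper T cells take on separate functions under lineage-directing transcription factors. T-bet (Tbx21) directs TH1 cells and, with its relative eomesodermin (Eomes), cytotoxic programmes, while ROR alpha (Rora) acts in TH17 cells. BCL6 directs follicular helper (TFH) cells and is opposed by BLIMP1 (Prdm1), and IRF4, c-MAF (Maf) and the aryl hydrocarbon receptor (Ahr) serve several helper lineages. ThPOK (Zbtb7b) holds T cells in the CD4 lineage against RUNX3. Treg cells use many of these factors too: IRF4 and BLIMP1 mark effector Treg cells, and T-bet, BCL6 and c-MAF serve Treg cells that restrain TH1, TFH and TH17 responses.

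Libraries held between 24158699 and 54795718 counted read pairs, and the 9 factors had from 81 counts (Eomes) to 5606 counts (Zbtb7b) in a library. The Treg markers Foxp3, Il2ra, Ctla4, Ikzf2, Tnfrsf18, Cd4, Cd3e and Trac were all expressed, and DESeq2 called 0 of these 8. At an unadjusted DESeq2 p under 0.05 there were 2, Ctla4 and Tnfrsf18, with log2 fold changes of -0.31 and -0.42, and edgeR called 0. Other annotation overlaps 31.53% of the exon bases of Foxp3 and 27.17% of those of Tnfrsf18. Libraries did not spread evenly within groups: the first principal component of the 500 most variable genes took 60.5% of their variance and set R26-TIR1(F74G) replicate 7 (score 24.6) and R26-WT replicates 3 and 4 (scores -16.9 and -15.5) at its ends. Along it, the levels of long genes moved against short ones. DESeq2 called 13 of the 16 genes of a proliferation list, all higher in R26-TIR1(F74G), where it called 1.40% of all tested genes higher, and edgeR called 6. The mean log2 level of that list lay between 7.54 and 8.50 in R26-WT and between 9.05 and 9.91 in R26-TIR1(F74G). A DESeq2 fit over all genes with this mean as a covariate, added after the data were seen, called 35 genes and 0 of the 9 factors. This mean did not overlap between the genotypes, so its part in the results cannot be told apart from theirs.

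Promoter sequences of some of the factors are given first, from RefSeq on build GRCm38.p6, which is not the build of the counts. Each holds 250 bases before and 50 bases after a start site, read 5′ to 3′ on the gene's strand. The table held 7 of the 9 factors, and Maf and Ahr had no entry. Eomes is shown because it was the 1 factor called, Tbx21 as its relative, and Bcl6 and Prdm1 as an opposed pair whose ratio was tested. Tbx21, Bcl6 and Prdm1 were not called, and the groups overlapped in the Bcl6 to Prdm1 ratio. Capitals mark letters that matched one of 5 motifs searched on both strands: GTAAACA (forkhead), AGGTGTGA (T-box), TATANA (TATA), TTCNNNGAA (STAT) and GNGAAAG (BLIMP1).
Eomes (chr9:118477939-118478238, plus strand): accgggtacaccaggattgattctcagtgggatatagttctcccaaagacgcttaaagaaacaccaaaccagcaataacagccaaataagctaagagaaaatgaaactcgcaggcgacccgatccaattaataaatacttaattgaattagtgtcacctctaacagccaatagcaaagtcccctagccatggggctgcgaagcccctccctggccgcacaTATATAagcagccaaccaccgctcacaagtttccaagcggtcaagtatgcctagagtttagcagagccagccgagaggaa
Tbx21 (chr11:97115282-97115581, minus strand): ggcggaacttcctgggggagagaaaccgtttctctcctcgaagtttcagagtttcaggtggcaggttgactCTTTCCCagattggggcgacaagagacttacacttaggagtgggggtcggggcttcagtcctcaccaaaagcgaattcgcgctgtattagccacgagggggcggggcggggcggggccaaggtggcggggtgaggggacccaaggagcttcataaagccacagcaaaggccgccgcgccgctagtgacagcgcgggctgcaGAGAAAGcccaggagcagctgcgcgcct
Bcl6 (chr16:23988803-23989102, minus strand, the first of 2 windows): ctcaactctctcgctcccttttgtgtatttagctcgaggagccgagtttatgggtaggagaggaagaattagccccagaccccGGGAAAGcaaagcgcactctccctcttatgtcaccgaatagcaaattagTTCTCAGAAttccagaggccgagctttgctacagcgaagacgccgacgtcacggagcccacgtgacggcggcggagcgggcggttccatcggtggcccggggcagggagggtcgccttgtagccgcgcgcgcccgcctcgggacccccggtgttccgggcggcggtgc
Prdm1 (chr10:44458699-44458998, minus strand): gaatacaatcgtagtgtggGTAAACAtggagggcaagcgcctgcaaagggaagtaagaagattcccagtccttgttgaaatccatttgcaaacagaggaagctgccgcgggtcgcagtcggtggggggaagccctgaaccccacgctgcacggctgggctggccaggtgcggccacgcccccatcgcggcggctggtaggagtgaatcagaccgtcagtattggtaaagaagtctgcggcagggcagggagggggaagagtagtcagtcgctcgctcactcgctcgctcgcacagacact

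The Eomes window held TATATA from -30 to -25 relative to the start site and no match to the other 4 motifs. These TATA letters were chosen after a stricter form, TATAAA, had no match in this window. TATANA overlapped itself there, being found on both strands, and occurs in 24.7% of the 32851 promoter windows of this length. The Tbx21 window held the BLIMP1 letters at 2 positions, the first Bcl6 window held 1 BLIMP1 and 1 STAT match, the second, not shown, 3 STAT matches, and the Prdm1 window held the forkhead letters from -231 to -225. These motifs occur in 22.6% (BLIMP1), 8.3% (STAT) and 3.65% (forkhead) of all windows, and the T-box letters, in 1.28%, were in none of the 4 shown. A match of letters is not a binding site.

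Of the 9 factors, Eomes was the only one called by DESeq2 at an adjusted p under 0.05, where 284 of the 16363 tested genes (1.74%) were called and 229 (1.40%) were called higher in R26-TIR1(F74G). Its transcript was 2.78-fold higher in Foxp3-depleted Treg cells. The other 8 were not called, and their fold changes lay between 0.955 and 1.42. The median log2 fold change of the 9 was 0.31, beside 0.00063 over all tested genes, with 7 positive and 2 negative values. Unadjusted p was under 0.05 for 2 factors, Eomes and Prdm1, and for 6.86% of all tested genes. In bulk libraries a larger share of cells with a transcript and more transcript per cell cannot be told apart.

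**Figure D1:**
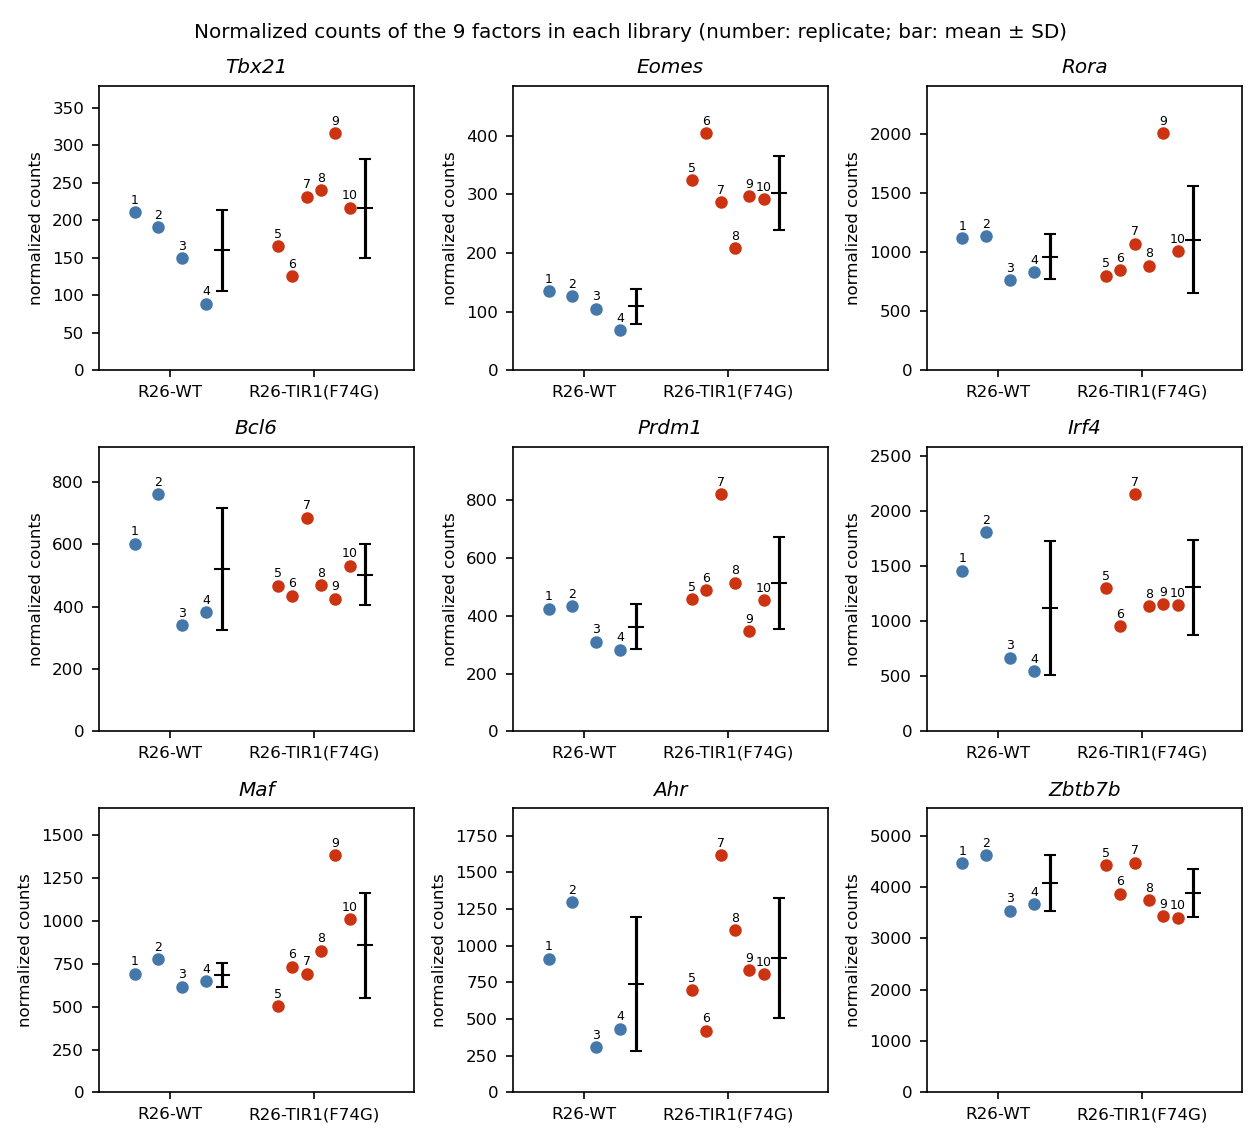
Normalized counts (counts divided by DESeq2 size factors, linear axes from 0) of the 9 factors in 4 R26-WT and 6 R26-TIR1(F74G) libraries, numbered by replicate, with mean ± SD. Only the Eomes panel shows groups that do not overlap, and Irf4, Bcl6, Prdm1 and Ahr share high values in R26-TIR1(F74G) replicate 7.

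Eomes (chromosome 9, 118307280 to 118315200, plus strand, GRCm39) had normalized counts of 135, 127, 105 and 68.5 in R26-WT replicates 1 to 4. In the 6 R26-TIR1(F74G) libraries it ranged from 209 in replicate 8 to 404 in replicate 6, with a median of 294. Every Foxp3-depleted library was above every control, a separation seen in 2.37% of tested genes in either direction. The group means were 109 ± 29.8 (SD, n = 4) and 302 ± 63.1 (SD, n = 6), and the log2 difference was 1.47 (95% interval 1.03 to 1.91, SE 0.23, adjusted p 4.54e-08 by DESeq2). Eomes ranked 23 by adjusted p among the 284 calls and 86 by fold change. The edgeR quasi-likelihood test (adjusted p 0.0161) and limma voom (adjusted p 0.0222) also called it, and DESeq2 called it whichever library was left out (log2 fold change 1.31 to 1.60). With the mean level of the proliferation list as a covariate, the log2 fold change was 1.04 (DESeq2 adjusted p 0.188, SE 0.46) and Eomes was not called. That covariate had a correlation of 0.88 with genotype over the 10 libraries, and the SE was 0.23 without it. Among the other 8 factors, none called in either fit, the log2 fold change turned from positive to negative for Tbx21, Rora, Prdm1, Irf4 and Ahr in the fit with the covariate.

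Genes that overlap or flank Eomes were read beside it. A gene on the other strand, Gm33460, overlaps 2.84% of its exon bases and had between 0 and 17 counts. Golga4, the next tested gene to the right, had 5245 ± 864 and 5350 ± 522 normalized counts (log2 fold change 0.03, SE 0.13). To the left, Platr11 had 6.92 ± 6.11 and 15.5 ± 6.32 (DESeq2 adjusted p 0.804, log2 fold change 1.16, SE 0.62). These neighbours were chosen by position.

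Tbx21 (chromosome 11, 96988897 to 97006157, minus strand), which encodes the T-box factor of TH1 cells, had 211, 191, 150 and 88.8 normalized counts in R26-WT. In R26-TIR1(F74G) it ranged from 125 in replicate 6 to 316 in replicate 9, with a median of 224. The groups overlapped, and the log2 fold change of 0.43 (SE 0.28, 95% interval -0.13 to 0.99) was within the spread between libraries. Leaving out R26-WT replicate 4 gave 0.23, and leaving out R26-TIR1(F74G) replicate 9 gave 0.29. Replicate 6, the lowest of its group in Tbx21, was the highest in Eomes. Per kilobase of exon, the Eomes level was 0.384 to 0.462 of the Tbx21 level in the 4 R26-WT libraries. In the 6 R26-TIR1(F74G) libraries this ratio was 0.520 to 1.93, with a median of 0.772, and passed 1 in 2 of them. No test was made of it, since it was chosen after the values were seen.

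No gene of the 2 programmes linked to T-bet and EOMES was called. Of 12 TH1 genes 7 were tested and 0 were called (median log2 fold change -0.12), and of 9 cytotoxic genes 8 were tested and 0 were called (median -0.16). At an unadjusted p under 0.05, DESeq2 had 1 gene in each list, and edgeR called 0 in both. These genes, named after their values were seen, had negative fold changes and groups that did not overlap. Ccl5, a chemokine, had 21.5 ± 6.4 and 8.61 ± 3.12 normalized counts (DESeq2 adjusted p 0.112, log2 fold change -1.29, SE 0.43). Slamf7, a SLAM family receptor with 9.24% of its exon bases overlapped by other annotation, had 113 ± 10.1 and 77.9 ± 16.3 (DESeq2 adjusted p 0.214, log2 fold change -0.54, SE 0.20). Among the most abundant, Il18r1, an IL-18 receptor chain, had 1691 ± 164 and 1560 ± 311 normalized counts and Fasl, a death ligand, 782 ± 129 and 719 ± 142. Ctsw, a cytotoxic cell cathepsin, had a log2 fold change of -0.22 (SE 0.17) and Prf1, perforin, one of -0.06 (SE 0.14). Of 8 markers of CD8 and NK cells, which share Gzma, Prf1 and Klrd1 with the cytotoxic list, 6 were tested and 0 were called by DESeq2 or edgeR, also at an unadjusted DESeq2 p under 0.05. Their normalized counts, mostly of Cd8b1 and Prf1, summed to between 1797 and 2495 in R26-WT and between 1632 and 2099 in R26-TIR1(F74G), and Ncr1 and Klre1, which define NK cells, had 0 counts in every library.

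Rora and Maf, factors of TH17 cells and of IL-10-producing and follicular T cells, both had their highest value in R26-TIR1(F74G) replicate 9. Rora (chromosome 9, 68561068 to 69295528, plus strand) had 1119, 1133, 765 and 830 normalized counts in R26-WT and between 801 and 2003 in R26-TIR1(F74G), with a median of 947. The highest value was in replicate 9 and the next, in replicate 7, was 1072, and without replicate 9 the log2 fold change went from 0.20 (SE 0.26) to -0.055. Maf (chromosome 8, 116409681 to 116434533, minus strand) had 693, 776, 615 and 647 in R26-WT and between 501 and 1381 in R26-TIR1(F74G), with a median of 779. Its highest value was again in replicate 9, and its log2 fold change was 0.33 (SE 0.24, 95% interval -0.14 to 0.80), or 0.14 without replicate 9. Replicate 9 was also highest in Tbx21. In the same library the mean log2 level of 13 genes of activated Treg cells was 10.1, beside 8.35 to 9.04 in the other 5 Foxp3-depleted libraries. Its part in these levels was not tested.

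The rest of the TH17 programme was barely detected. Of its 8 genes 2 were tested and 0 were called by DESeq2 or edgeR, also at an unadjusted DESeq2 p under 0.05. Ccr6, a TH17 chemokine receptor, had 185 ± 13.1 normalized counts in R26-WT and 139 ± 51.3 in R26-TIR1(F74G) (log2 fold change -0.41, SE 0.26). Other annotation overlaps 49.35% of its exon bases, and pairs that overlap several genes were not counted. Il17a had 0 counts in all 10 libraries.

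Bcl6 and Prdm1, whose products repress each other's gene in helper T cells, were read singly and as a ratio. Bcl6 (chromosome 16, 23783802 to 23807602, minus strand) had 602, 761, 342 and 383 normalized counts in R26-WT and between 426 and 686 in R26-TIR1(F74G), with a median of 468. Its groups overlapped throughout, with a log2 fold change of -0.05 (SE 0.24, 95% interval -0.52 to 0.41). Prdm1 (chromosome 10, 44313173 to 44404497, minus strand) had 425, 434, 310 and 282 in R26-WT and between 346 and 820 in R26-TIR1(F74G), with a median of 473. Of the 6 Foxp3-depleted libraries 5 were above the highest control, and replicate 9 was not. The log2 fold change of 0.50 (SE 0.23, 95% interval 0.04 to 0.96) did not pass the adjustment over all genes (DESeq2 adjusted p 0.592, unadjusted p 0.0319). Without replicate 7, the highest library, it was 0.32.

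The log2 ratio of Bcl6 to Prdm1, which takes off what both genes share within a library, was 0.50, 0.81, 0.14 and 0.44 in R26-WT replicates 1 to 4. In R26-TIR1(F74G) it lay between -0.26 in replicate 7 and 0.30 in replicate 9. The mean was 0.47 ± 0.27 (SD, n = 4) in R26-WT, it fell by 0.47 to about 0 in R26-TIR1(F74G) (SD 0.23, n = 6), and the groups overlapped. A two-sided exact permutation test over all 210 splits gave p = 0.0238, or 0.0476 adjusted over the 2 ratios tested, where 0.00476 is the smallest p possible. Without R26-WT replicate 2, the library with the highest ratio, the fall was 0.36 and the unadjusted exact p was 0.0714. With each library left out in turn the unadjusted p was 0.0119 to 0.0714 and, adjusted over the 2 ratios, 0.0238 to 0.143, which missed 0.05 in 7 of 10 cases. The ratio was chosen with earlier results of these data known.

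**Figure D2:**
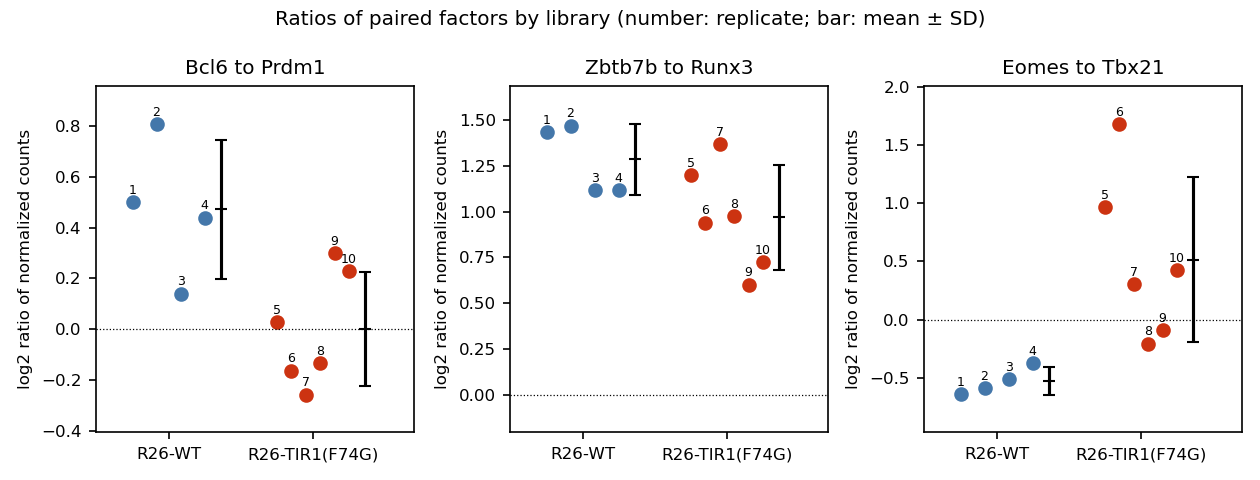
Log2 ratios of normalized counts (pseudocount 1) for 3 pairs of factors in each library, numbered by replicate, with mean ± SD. The Bcl6 to Prdm1 ratio fell from 0.47 to about 0 with overlapping groups, the Zbtb7b to Runx3 groups overlapped, and every Eomes to Tbx21 value of R26-TIR1(F74G) was above those of R26-WT.

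Of 15 TFH genes 14 were tested, and 3 were called, all higher in R26-TIR1(F74G), beside a Bcl6 level that was not called (list median 0.12). Over all programme and partner lists together, 8 of 79 tested genes (10.1%) were called, beside 1.74% of all tested genes. The lists were made with earlier results of these data known, so no conclusion is drawn from the larger share. Pou2af1, a transcriptional coactivator, had 127, 140, 197 and 201 normalized counts in R26-WT and 299 to 410 in R26-TIR1(F74G). Its groups did not overlap, and it rose by 1.08 on the log2 scale (SE 0.18, DESeq2 adjusted p 4.92e-07, edgeR adjusted p 0.0204). Slamf6, a SLAM family receptor, rose from 16173 ± 309 to 21776 ± 2425 (DESeq2 adjusted p 0.00411, log2 fold change 0.43, SE 0.10), again with no overlap. Tox2, an HMG-box factor, rose from 116 ± 63.2 to 316 ± 171 (DESeq2 adjusted p 0.0236, log2 fold change 1.44, SE 0.40), with overlapping groups and a call in 6 of 10 leave-one-out fits. With the proliferation covariate, where none of the 3 was called, the log2 fold change was 1.32 for Pou2af1 (SE 0.37), 0.39 for Slamf6 (SE 0.22) and -0.31 for Tox2 (SE 0.67). Neither Slamf6 (edgeR adjusted p 0.104) nor Tox2 (edgeR adjusted p 0.289) was called by edgeR. Btla, an inhibitory receptor, had 5287 ± 1371 and 5593 ± 963. Cxcr5, the homing receptor of TFH cells, named after its values were seen, had 846 ± 157 and 571 ± 100.1 normalized counts (DESeq2 adjusted p 0.0801, log2 fold change -0.57, SE 0.18). It was not called, but was called in 2 of 10 leave-one-out fits. Il21, a cytokine also named after its values were seen, had 20.8 ± 8.39 and 44.7 ± 20.3 with overlapping groups. It was not called either (DESeq2 adjusted p 0.375, log2 fold change 1.08, SE 0.45). In all, 5 genes of the list had an unadjusted DESeq2 p under 0.05.

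Irf4 (chromosome 13, 30933209 to 30950959, plus strand), an effector factor induced by antigen receptor signals, varied more between controls than between genotypes. It had 1460, 1812, 671 and 548 normalized counts in R26-WT and between 957 and 2154 in R26-TIR1(F74G), with a median of 1149. R26-WT replicates 3 and 4 were the lowest of all 10 libraries and R26-TIR1(F74G) replicate 7 the highest, at the same ends as on the first principal component. The log2 fold change of 0.22 (SE 0.32, 95% interval -0.42 to 0.86) was not called, and it was -0.0042 without R26-WT replicate 4.

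Among 16 genes of the effector Treg programme linked to BLIMP1 and IRF4, 1 was called higher and 1 lower (median log2 fold change 0.19). At an unadjusted DESeq2 p under 0.05 there were 4, and edgeR called 0. Tigit, an inhibitory receptor, had 39, 77.7, 31.7 and 22.8 normalized counts in R26-WT and 71.4 to 337 in R26-TIR1(F74G), highest in replicate 9. It rose by 1.73 on the log2 scale (SE 0.45, DESeq2 adjusted p 0.0102, edgeR adjusted p 0.245), with a call in 7 of 10 leave-one-out fits. With the proliferation covariate its log2 fold change was 0.24 (SE 0.86, not called). Tnfrsf9, which encodes the costimulatory receptor 4-1BB, had 7734 ± 609 and 5497 ± 502 with no overlap, and fell by 0.49 on the log2 scale (SE 0.11, DESeq2 adjusted p 0.000565, edgeR adjusted p 0.051), and with the covariate the log2 fold change was -0.42 (SE 0.22, not called). Both genes also stand in the list of activated Treg genes. Icos, a costimulatory receptor, had 4257 ± 352 and 5430 ± 2106, and Il10, the suppressive cytokine, 26.5 ± 20.6 and 44.1 ± 25.5, and neither was called. Lag3 and Havcr2, named after their values were seen, were higher and not called. Lag3 had 102 ± 15.1 and 153 ± 28.7 with no overlap (DESeq2 adjusted p 0.0876, log2 fold change 0.59, SE 0.19). Havcr2 had 2.19 ± 4.38 and 20.0 ± 21.4 with overlap (DESeq2 adjusted p 0.142, log2 fold change 3.16, SE 1.09).

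Ahr (chromosome 12, 35547973 to 35585037, minus strand), a receptor for environmental and dietary ligands, had the widest interval of the 9. Normalized counts were 912, 1299, 309 and 434 in R26-WT and between 422 and 1617 in R26-TIR1(F74G), with a median of 822. Both the second highest and the lowest of the 10 values were controls, and the log2 fold change of 0.31 (SE 0.39, 95% interval -0.46 to 1.07) was not called. Leaving out R26-WT replicate 2 gave 0.73, R26-WT replicate 3 gave 0.05, R26-WT replicate 4 gave 0.12, and R26-TIR1(F74G) replicate 7 gave 0.07. Of 9 genes of its pathway 5 were tested and 0 were called by DESeq2 or edgeR, with 2 at an unadjusted DESeq2 p under 0.05. Its partner Arnt had 2971 ± 1222 and 2953 ± 913 (log2 fold change -0.01, SE 0.28). Tiparp, an AHR target, had 1726 ± 281 and 1743 ± 135 normalized counts. The genes at an unadjusted p under 0.05, named after their values were seen, were Gpr15, a homing receptor, with 182 ± 49.7 and 400.4 ± 327 (DESeq2 adjusted p 0.231, log2 fold change 1.14, SE 0.43), and Nqo1, an oxidoreductase, with 9.52 ± 4.37 and 33.1 ± 27.2 (DESeq2 adjusted p 0.276, log2 fold change 1.81, SE 0.70). Both had positive fold changes and overlapping groups, and both were highest in R26-TIR1(F74G) replicate 9. Cyp1a1, Cyp1a2, Cyp1b1 and Ahrr had too few counts to be tested.

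Zbtb7b (chromosome 3, 89284951 to 89302083, minus strand) was the most abundant of the 9 and had the narrowest interval. It had 4464, 4616, 3539 and 3671 normalized counts in R26-WT and between 3400 and 4474 in R26-TIR1(F74G), with a median of 3809. The log2 fold change was -0.07 (SE 0.13), and its 95% interval of -0.33 to 0.20 corresponds to folds from 0.797 to 1.15. Another gene, Gm15417, overlaps 8.34% of its exon bases, more than for any other of the 9. Runx3, its antagonist, had 1659 ± 25 and 1983 ± 178, and its groups did not overlap, but it was not called (DESeq2 adjusted p 0.248, log2 fold change 0.26, SE 0.10).

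The log2 ratio of Zbtb7b to Runx3 was 1.44, 1.47, 1.12 and 1.12 in R26-WT replicates 1 to 4 and lay between 0.60 and 1.37 in R26-TIR1(F74G). The means were 1.29 ± 0.19 (SD, n = 4) and 0.97 ± 0.29 (SD, n = 6), and the two-sided exact permutation p was 0.0857 over 210 splits. With each library left out in turn the unadjusted exact p was 0.0317 to 0.202. Adjusted over the 2 ratios it was 0.0397 to 0.202, which missed 0.05 in 9 of 10 cases. The exception was the test without R26-TIR1(F74G) replicate 7, where the difference went from -0.32 to -0.40. Of 10 genes of the CD4 and CD8 lineage choice 0 were called, with 1 at an unadjusted DESeq2 p under 0.05 and 0 by edgeR. Cd4 had 23526 ± 5202 and 28100 ± 2810 normalized counts, and Cbfb, the shared RUNX subunit, 8143 ± 861 and 8015 ± 430.

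**Figure D3:**
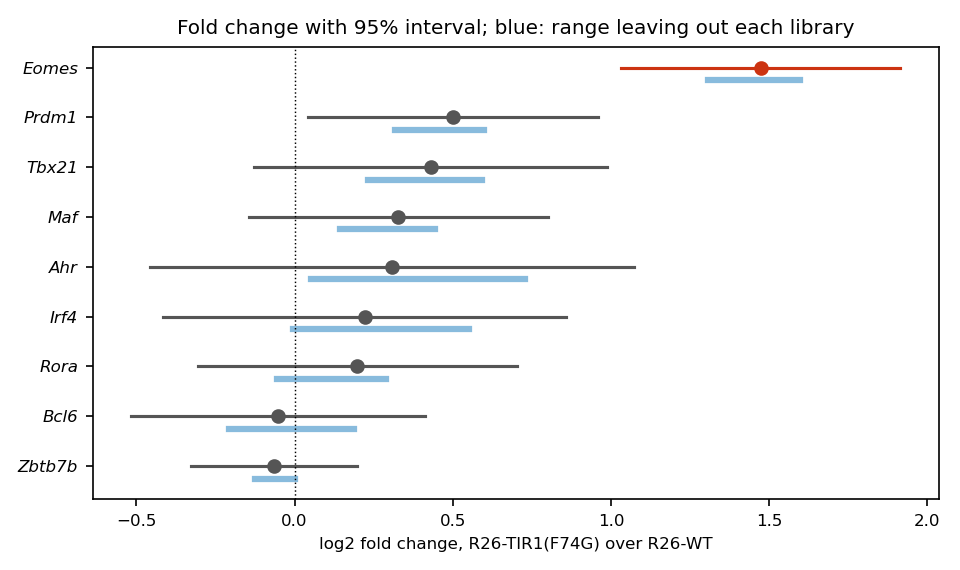
Log2 fold change of each factor (R26-TIR1(F74G) over R26-WT, points) with its 95% interval (lines) and, in blue, the range when each library was left out. The interval of Eomes starts at 1.03, that of Prdm1 at 0.04, and the other 7 cross 0.

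Among 27 partner and antagonist transcription factors, 24 were tested and 2 were called, both higher in R26-TIR1(F74G) (list median -0.01). At an unadjusted DESeq2 p under 0.05 there were 6, Runx3 with a positive fold change among them, and edgeR called 1. Id2, an inhibitor of E proteins, had 2839, 2634, 3139 and 2720 normalized counts in R26-WT and 4337 to 7962 in R26-TIR1(F74G). It rose by 0.92 on the log2 scale (SE 0.17, DESeq2 adjusted p 3.71e-05, edgeR adjusted p 0.039), with no overlap between groups. With the proliferation covariate the log2 fold change was 0.90 (SE 0.36, not called). Tcf7, which encodes the resting and TFH cell factor TCF1, rose from 57875 ± 7140 to 77714 ± 7248 (DESeq2 adjusted p 0.0257, edgeR adjusted p 0.121, log2 fold change 0.43, SE 0.12), with a call in 3 of 10 leave-one-out fits. With the covariate its log2 fold change was 0.20 (SE 0.24, not called). Batf, an IRF4 partner, had 3887 ± 887 and 4418 ± 1280, Bach2, an antagonist of BLIMP1-driven effector genes, 5252 ± 1298 and 5212 ± 1175, and Klf2, a factor of recirculating T cells, 67803 ± 9130 and 62744 ± 8608. Foxo1, Id3 and Hopx, named after their values were seen, had negative fold changes at such a p and were not called. Their log2 fold changes were -0.27 (SE 0.09), -0.62 (SE 0.23) and -0.48 (SE 0.16), with DESeq2 adjusted p of 0.145, 0.212 and 0.103. Only Foxo1 had groups that did not overlap.

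Gata3, the lead regulator of the TH2 programme, in which c-MAF and IRF4 also act, is not one of the 9 and had 7183 ± 511 and 6604 ± 805 normalized counts (log2 fold change -0.12, SE 0.12). Of 11 TH2 genes 8 were tested, and Il4, the TH2 cytokine also made by TFH cells, was the only one called (list median 0.41). Il4 had 16.7, 9.84, 7.32 and 10.1 normalized counts in R26-WT and 75.9 to 366 in R26-TIR1(F74G), with no overlap. It rose by 3.76 on the log2 scale (SE 0.46, DESeq2 adjusted p 6.35e-13, edgeR adjusted p 0.011), and with the covariate the log2 fold change was 2.602 (SE 0.91, not called). Il13 was not tested, with at most 1.12 normalized counts in a library. Il4ra, an IL-4 receptor chain, had 17933 ± 5183 and 28571 ± 7947, and Stat6, which acts below it, 15424 ± 5668 and 15584 ± 3207, and neither was called.

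**Figure D4:**
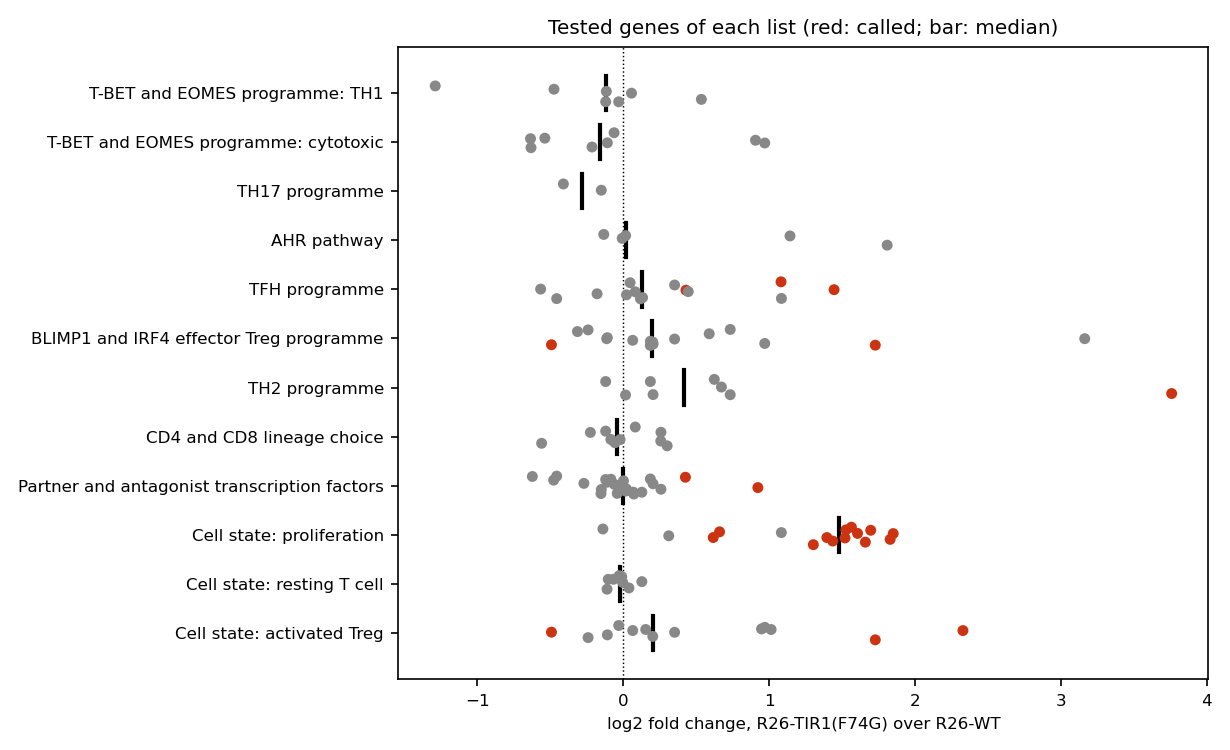
Log2 fold changes (R26-TIR1(F74G) over R26-WT) of the tested genes of each list, with called genes in red and list medians as bars; spread within a row has no meaning. The TH1, cytotoxic, TH17, AHR and CD4 and CD8 lists hold no called gene, while 13 of 16 proliferation genes were called.

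Markers of other cells were measured beside these lists. The B cell list had 1 called gene of 4 tested, Cd22, which had 12.2 ± 4.82 and 77.9 ± 95.9 normalized counts and was called in 4 of 10 leave-one-out fits. R26-TIR1(F74G) replicate 9 had 273, and the other 5 libraries of its group had 23.6 to 51.2. Ms4a1, which defines B cells, had at most 4.46 in any library. The summed B cell list lay between 858 and 1400 in R26-WT and between 766 and 1465 in R26-TIR1(F74G), most of it from Cd79a and Cd79b. Of the plasma cell list 0 of 2 tested genes were called (1 at an unadjusted DESeq2 p under 0.05), and Mzb1 and Tnfrsf17 had 0 counts throughout. Its sums, mostly Xbp1, were 8518 to 10483 and 8660 to 11620. The myeloid list had 0 of 4 tested genes called (0 at an unadjusted DESeq2 p under 0.05), with sums of 2666 to 3881 and 2486 to 3504, mostly Cst3, and Cd14 at 0. The edgeR test called 0 genes in each of these 3 lists. Of the 8 genes of resting T cells 0 were called by either test, also at an unadjusted DESeq2 p under 0.05, and of the 13 of activated Treg cells 3 were called by DESeq2 and 0 by edgeR: Tigit and Ccr2 (higher) and Tnfrsf9 (lower), of which Ccr2 was named after its values were seen.

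Levels of the 9 factors were compared with each other per kilobase of exon. Zbtb7b had the highest mean over all 10 libraries, 709 normalized counts per kilobase, which is above 76.2% of tested genes, and was followed by Irf4 (252) and Ahr (137). Zbtb7b was above Irf4 and Irf4 above Ahr in all 10 libraries. Ahr was above Maf (95.5) in only 6, and Prdm1 (81.3), Rora (80.1), Tbx21 (77.8) and Bcl6 (76.2) could not be ordered over all libraries: each was above the next in 4 or 5 of 10. Prdm1 was above Rora in 0 of 4 R26-WT and 5 of 6 R26-TIR1(F74G) libraries. Eomes was last, at 26.2 ± 7.18 in R26-WT (SD, n = 4), below Bcl6 in all 4 libraries. In R26-TIR1(F74G) it was at 72.6 ± 15.2 (SD, n = 6) and below Bcl6 in 3 of 6. For scale, Foxp3, with 31.53% of its exon bases overlapped by other annotation, had 2013 and the median tested gene 176.

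Within groups, some of the factors varied together. After each group's mean was taken off, Irf4 and Bcl6 had a Pearson correlation of 0.94 over the 10 libraries, Bcl6 and Ahr 0.89, and Irf4 and Ahr 0.88, while Prdm1 had 0.79 with both Bcl6 and Irf4. Irf4, Bcl6, Prdm1, Ahr and Zbtb7b also had correlations of 0.83 to 0.93 with the first principal component, and of 0.84 to 0.94 with each library's slope of level over gene length. With the mean of the proliferation list they had correlations of 0.87 (Irf4), 0.78 (Bcl6), 0.77 (Prdm1), 0.78 (Ahr) and 0.59 (Zbtb7b). Rora and Maf had a correlation of 0.81, and of 0.95 and 0.89 with the mean of the activated Treg list, to which replicate 9 adds most. Tbx21 had correlations with both groups of factors, of 0.72 with Rora, 0.57 with Maf, 0.66 with Ahr and 0.62 with Irf4, and of 0.73 with the activated Treg list. For Eomes the highest correlation with another factor was 0.47, with Irf4, and with Tbx21 it was 0.17. All points share library size factors and depth, and these values are descriptions.

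**Figure D5:**
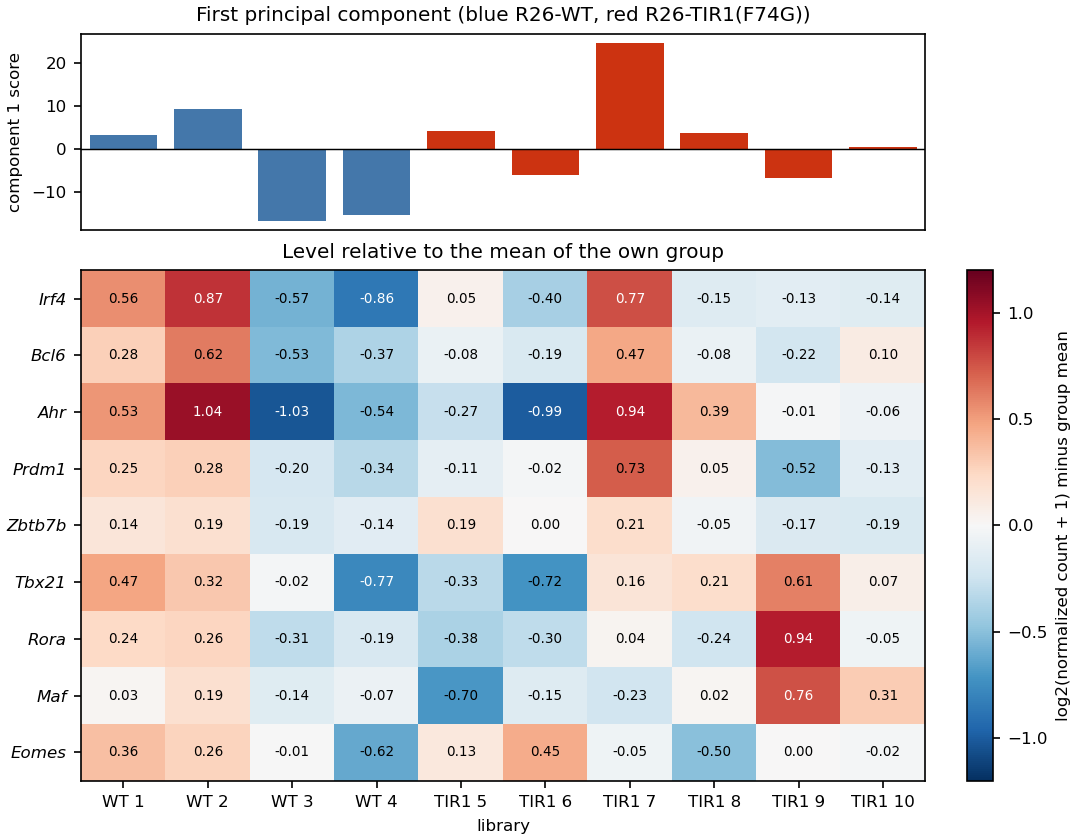
Top, score of each library on the first principal component. Bottom, log2(normalized count + 1) of each factor minus the mean of its own group, by library: Irf4, Bcl6, Ahr and Prdm1 are high in R26-WT replicates 1 and 2 and R26-TIR1(F74G) replicate 7 and low in R26-WT replicates 3 and 4, and Rora and Maf are highest in R26-TIR1(F74G) replicate 9.

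The same measure was used to find the genes whose pattern within groups was most like each factor, among 10034 tested genes with a symbol and a mean normalized count of at least 100. The 3 nearest genes had correlations from 0.84 to 0.99 over 10 libraries. Picked as the highest of so many genes over so few libraries, they are high by choice. No chance level was worked out, and they are descriptions, not partners shown by these data. For Eomes they were Cbfb (0.85), Fbxo30 (0.85) and Hccs (0.84), the lowest of the 9 sets. For Tbx21 they were Nfil3 (0.92), Tox2 (0.91) and Crmp1 (0.91), for Rora Fut7 (0.96), Ccr4 (0.93) and Actg2 (0.93), and for Maf Cxcr6 (0.96), Atg16l2 (0.92) and Tmbim1 (0.91). Bcl6 was nearest to Ascc2 (0.99), Zfp654 (0.99) and Gramd1a (0.99), Irf4 to Sec14l1 (0.99), Pde7a (0.98) and Zc3h11a (0.98), and Prdm1 to Eri2 (0.98), Tyro3 (0.97) and Gpd1l (0.97). Ahr was nearest to Slc4a7 (0.97), Ulbp1 (0.97) and Abi2 (0.97), and Zbtb7b to Zap70 (0.98), Mark4 (0.97) and Slc29a3 (0.96).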

How the data were processed

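RNA from Treg cells of 10 samples (4 R26-WT, 6 R26-TIR1(F74G)) was amplified by SMART-Seq, with no molecular identifiers named, from RNA with integrity numbers of 5.5 to 9.3 per the labels. The authors deposited raw counts of read pairs for each gene, made with featureCounts 2.1.1 and GENCODE M30 (mapping quality of at least 30, no strand option), per the file headers. The study's methods name STAR, and the submitters' processing notes list mm39 and Bowtie2, so the aligner of these files was not settled. Pairs that overlap several genes were not counted. Totals of 24158699 to 54795718 set the depth, and PCR copies are not independent molecules. The labels do not say that replicates are separate mice, so p-values measure the spread between these samples. A chi-square of counts, made only to look for a library deposited more than once, was 9.91 to 243 per degree of freedom in 21 replicate pairs and marked none as such.

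Testing took the genes whose mean count reached 10, with DESeq2 1.42.0 (R 4.3.3, genotype as the only term, two-sided Wald test, Benjamini-Hochberg adjusted p under 0.05), and intervals are the estimate ± 1.96 SE. DESeq2 gave no adjusted p for 6 genes. The fits were tested on simulated data, where DESeq2 made more false calls than its threshold allows and more than edgeR. Ratios were tested by exact permutation. Alternatives were edgeR 4.0.16, limma 3.58.1 voom, TMM factors, other filters, a gene length trend, 1 surrogate variable (sva 3.50.0), leaving out each library and, added after the data were seen, a proliferation covariate. Named genes are the 9 factors, the called genes of each list (at most 5), its 2 most abundant genes, Runx3, Bach2, Batf and Il10, and the 3 genes most like each factor. A few genes that this rule names are not reported here. The members and lists were chosen with earlier results of these data known.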

Additional observations from a re-analysis of the deposited data

Results flagged for a closer look

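In 22 sets of values (9 factors and 2 ratios in both groups), 3 had a library far from the rest of its group by Dixon's criterion, where chance gives about 1.1. Rora, at 2003 normalized counts, stood apart in R26-TIR1(F74G) replicate 9. Prdm1 (820.3) and Irf4 (2154) stood apart in replicate 7 of the same group. Replicate 7 had the highest score on the first principal component and replicate 9 the highest mean of the activated Treg list, and the part of either in these values was not tested.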

How the results depend on the processing

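No paired analysis was possible because replicate numbers run from 1 to 4 in R26-WT and from 5 to 10 in R26-TIR1(F74G). The call of Eomes, and of no other factor, held under each other test, scaling, filter and covariate named in the methods other than the added one, and with each library left out, and 0 factors were called with the proliferation covariate added after the data were seen. Genes called numbered 61 (edgeR), 80 (voom), 743 (1 surrogate variable) and 187 to 346 (leaving out each library, lowest without R26-WT replicate 4), against 284. List genes called numbered 3 (edgeR), 3 (voom), 14 (1 surrogate variable) and 5 to 11 (leaving out each library, lowest without R26-WT replicate 3), against 8. The Bcl6 to Prdm1 difference ranged from -0.58 to -0.36 and the Zbtb7b to Runx3 difference from -0.40 to -0.24 when each library was left out. Adjusted over the 2 ratios, the former missed 0.05 in 7 of 10 such tests and the latter in 9. Signs of factors that were not called turned for Bcl6 with voom (0.064) and over the fits leaving out a library (-0.21 to 0.19), and also in such fits for Rora (-0.055 to 0.29), Irf4 (-0.0042 to 0.55) and Zbtb7b (-0.13 to 0.00057). Over the same fits Tbx21 kept its sign at 0.23 to 0.59, Maf at 0.14 to 0.44, Ahr at 0.05 to 0.73 and Prdm1 at 0.32 to 0.60. With the proliferation covariate the signs of Tbx21 (-0.70), Rora (-0.48), Prdm1 (-0.53), Irf4 (-1.45), Ahr (-1.64) and Tox2 (-0.31) turned, and the other 7 called list genes kept their sign but not their call. Their log2 fold changes with and without it were 1.32 and 1.08 (Pou2af1), 0.90 and 0.92 (Id2), 0.39 and 0.43 (Slamf6), -0.42 and -0.49 (Tnfrsf9), 2.602 and 3.76 (Il4), 0.20 and 0.43 (Tcf7) and 0.24 and 1.73 (Tigit), and each SE was larger with it (0.22 to 0.91) than without (0.10 to 0.46). The covariate did not overlap between the genotypes, so it and genotype cannot be told apart, and the cause of the other shifts was not tested.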
